A study of Mus musculus with 15 samples.

Results

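The expression of 10 genes of the oxidative stress response and of metal binding was followed in mouse ear: *Gclc*, *Gclm*, *Slc7a11*, *Gpx2*, *Txnrd1*, *Srxn1*, *Nqo1*, *Hmox1*, *Mt1* and *Mt2*. They were taken by exact gene symbol from the 21110 genes listed for each library, and all 10 were present and passed the filter on low values in every comparison. The libraries came from ear specimens of C57BL/6 mice, 1 mouse each: wild type at 2 weeks (4 mice) and 10 weeks (3 mice) after birth, and *Socs3* cKO at 2 weeks (4 mice) and 10 weeks (4 mice). In *Socs3* cKO mice, *Socs3*, which encodes a feedback inhibitor of cytokine signaling through STAT3, is deleted in keratin 5-expressing cells, which include the basal keratinocytes. Wild type mice are labelled with the same strain and carry no further allele in the labels. The labels give keratinocytes as the source and ear as the tissue, and no treatment was given to either genotype. The study asked which genes are perturbed in skin when keratinocytes lack *Socs3*, early and late after birth.

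Cells answer oxidants and electrophiles largely through the transcription factor NRF2 (*Nfe2l2*), which KEAP1 holds at a low level until its cysteines are modified, and which then pairs with small MAF proteins at antioxidant response elements. Its best known targets make glutathione (*Slc7a11* imports cystine, *Gclc* and *Gclm* form glutamate-cysteine ligase), use it (*Gpx2*), keep thioredoxin and peroxiredoxins reduced (*Txnrd1*, *Srxn1*), reduce quinones (*Nqo1*) and degrade heme (*Hmox1*). Metallothioneins (*Mt1*, *Mt2*) are small cysteine-rich proteins that bind zinc and copper, and their genes are induced through the metal-responsive factor MTF-1, by glucocorticoids and by inflammatory cytokines.

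The start regions of the metallothionein pair and of *Gclm* are shown because these genes carry the letters for which the pathway is named. RefSeq sequences of GRCm38.p6 were at hand for 8 of the 10 genes, with 10 windows of 300 bases from 250 bases before to 50 bases after each start. The 250 bases before the start are given 5′ to 3′ on the gene's strand. Capitals mark matches, on either strand, to the antioxidant response element core TGACNNNGC or the metal response element cores TGCACNC and TGCGCNC.
Mt2, chr8:94172368-94172617, + strand: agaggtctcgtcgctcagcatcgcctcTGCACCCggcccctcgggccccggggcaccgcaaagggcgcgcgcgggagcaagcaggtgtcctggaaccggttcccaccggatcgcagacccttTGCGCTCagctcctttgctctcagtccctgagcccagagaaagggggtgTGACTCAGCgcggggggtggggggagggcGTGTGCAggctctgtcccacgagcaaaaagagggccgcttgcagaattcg
Mt1, chr8:94178839-94179088, + strand: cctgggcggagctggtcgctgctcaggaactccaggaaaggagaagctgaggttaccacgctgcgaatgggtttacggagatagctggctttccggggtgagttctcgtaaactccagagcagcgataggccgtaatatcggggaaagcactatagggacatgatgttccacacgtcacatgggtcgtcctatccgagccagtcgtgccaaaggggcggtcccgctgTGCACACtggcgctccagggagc
Gclm, chr3:122245307-122245556, + strand: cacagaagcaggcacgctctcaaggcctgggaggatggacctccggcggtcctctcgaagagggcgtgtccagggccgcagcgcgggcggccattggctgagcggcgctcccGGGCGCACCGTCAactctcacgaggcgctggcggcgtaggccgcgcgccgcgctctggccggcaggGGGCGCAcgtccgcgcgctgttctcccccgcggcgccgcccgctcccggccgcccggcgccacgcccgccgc
Before the start, the metal response element core was matched 3 times in *Mt2* and 1 time in *Mt1*, and 2 times in *Gclm*. The antioxidant response element core was matched 1 time before the start in *Mt2*, at position -79 counted back from the start, where the same letters also hold the AP-1 motif TGACTCA. In *Gclm* it was matched 1 time, at position -134, next to a metal response element match that shares bases with it. Of all 32851 windows of this length, 12.4% held the antioxidant core, 25.7% a metal core and 5.20% an AP-1 motif (TGACTCA or TGAGTCA), so a match alone is common and is only a description of the letters. Outside the windows shown, those of *Nqo1* and *Gpx2* held no match to these motifs or to the STAT motif TTCNNNGAA, which 8.30% of all windows held. *Srxn1* held 2 AP-1 matches and 1 metal core before the start and 1 antioxidant core after it. *Slc7a11* held 1 STAT match. Of the *Txnrd1* windows, 1 held an antioxidant core at position -92 and a STAT match, and another held a STAT match.

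Levels are given as FPKM, which divides the reads of a gene by its length and by the mapped reads of its library, and differences as log2(FC) of FPKM + 0.1 from limma. A gene was counted as up- or down-regulated with an adjusted p below 0.01 and a |log2(FC)| of at least 1. Across all genes tested, 14.4% passed at 2 weeks and 14.9% at 10 weeks. Of those that passed at 10 weeks 83.7% were higher, against 63.0% after median-of-ratios scaling, 54.3% after quantile normalization and 58.2% after removal of trends with gene length and GC content. The targeted gene *Socs3* had a mean FPKM of 10.2 ± 0.299 (SD, n = 4) in wild type ears and 6.67 ± 5.22 (SD, n = 4) in cKO ears at 2 weeks. The 4 cKO mice at 2 weeks had 1.25, 9.32, 12.6 and 3.51, so that replicate 3 lay above every wild type mouse and replicate 2 close below them. At 10 weeks the mean was 3.20 ± 1.45 (SD, n = 3) in wild type and 36.6 ± 7.90 (SD, n = 4) in cKO ears. There it went against the label, being higher in all 4 libraries labelled *Socs3* cKO, and cKO below means the libraries so labelled. One library, cKO replicate 1 at 2 weeks, stood apart, with log2 expression falling by 1.20 for each 10 points of GC content, where the other 14 ranged from -0.257 to 0.477. This slope also divided the genotypes, being positive in every wild type library and negative in every cKO library. At 2 weeks it was 0.426 to 0.477 in wild type mice and -0.181 to -0.134 in the remaining cKO mice. At 10 weeks it was 0.0668 to 0.352 in wild type mice and -0.257 to -0.0948 in cKO mice. The summed FPKM of the 6 keratinocyte markers was at least 4750 in every library, but markers of muscle, cartilage, blood, fibroblasts and immune cells were present too, and in such bulk tissue fewer cells of a type and less RNA per cell cannot be told apart. The 3 wild type libraries at 10 weeks also stood apart, with 1414 to 3176 genes listed at 0 where the other 12 had 4044 to 4423, and replicates 1 and 3 among them had the most negative trends of log2 expression with gene length (-0.263 and -0.216 per doubling). The 10 week, interaction and wild type age comparisons rest on these 3 mice, so values without all of them could not be had, and leaving out 1 of them in turn is among the alternative settings. No sequencing batch or date is in the labels, and the library numbers of the 4 groups do not interleave, so a batch that follows those numbers and the group cannot be told apart.

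**Figure D1:**
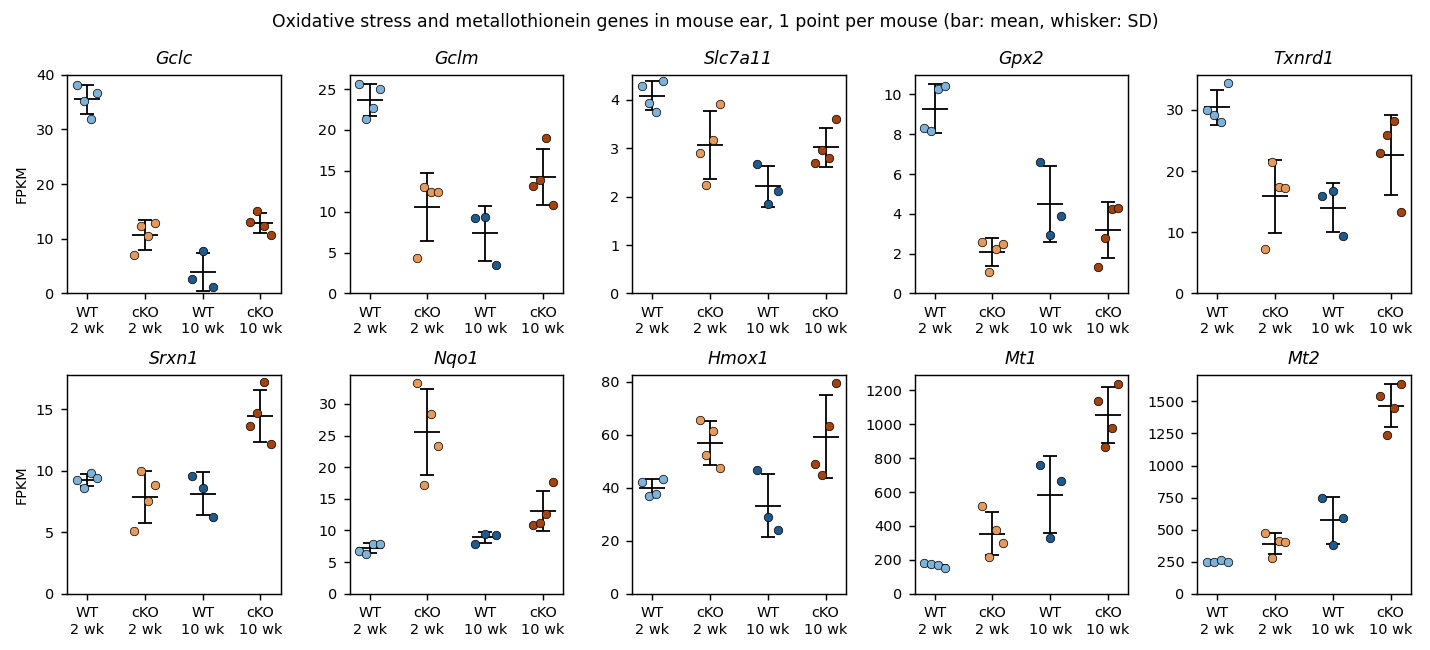
FPKM of the 10 genes (y axis, from 0) in wild type (WT) and cKO mice at 2 and 10 weeks, with 1 point per mouse, the mean as a bar and the SD as whiskers. *Gclc*, *Gclm*, *Gpx2* and *Txnrd1* were highest in wild type ears at 2 weeks, *Nqo1* in cKO ears at 2 weeks, and *Mt1* and *Mt2* in cKO ears at 10 weeks.

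Of the 6 glutathione and thioredoxin genes, 5 had their highest mean FPKM in wild type ears at 2 weeks, and *Srxn1* had it in cKO ears at 10 weeks (14.4 ± 2.12, SD, n = 4). At 2 weeks 2 of the 6, *Gclc* and *Gpx2*, were down-regulated in cKO ears and none was up-regulated, where 7.19% of all genes tested were down-regulated and 7.24% up-regulated. The median log2(FC) of the 6 was -1.16, against -0.21 for all genes tested. *Gclc*, the catalytic subunit of the rate-limiting enzyme of glutathione synthesis, lies on chromosome 9 of mm9 (77602342 to 77642292, 16 exons). Its FPKM was 38.1, 35.2, 32.0 and 36.7 in wild type ears and 6.93, 12.3, 10.5 and 13.0 in cKO ears at 2 weeks. The 4 cKO values all lay below the lowest wild type value. The log2(FC) was -1.76 (SE 0.21, adjusted p = 0.000563 with limma), and the exact permutation test gave p = 0.0286, the smallest that 4 mice against 4 allow. The difference passed under all 19 alternative settings, including the one without the library that stood apart.

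*Gclm*, the modifier subunit of the same enzyme (chromosome 3, 121948475 to 121972902), had an FPKM of 25.7, 21.3, 22.7 and 25.0 in wild type ears and 4.35, 13.0, 12.5 and 12.4 in cKO ears at 2 weeks. The groups did not overlap, and cKO replicate 1 was far below the other 3. Its log2(FC) of -1.28 (SE 0.34, adjusted p = 0.0177 with limma) missed the threshold and was -0.90 without that mouse. It passed after quantile normalization, with all 4 groups in 1 fit, and after removal of the length and GC trends with and without the same mouse. *Gclc* exceeded *Gclm* in every wild type mouse at 2 weeks, with a ratio of FPKM from 1.41 to 1.65. In cKO ears at 2 weeks the ratio ran from 0.845 to 1.60.

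*Gpx2*, a glutathione peroxidase of epithelia (chromosome 12, 77893322 to 77896541, 2 exons), had an FPKM of 8.31, 8.14, 10.3 and 10.4 in wild type ears and 2.57, 1.05, 2.21 and 2.46 in cKO ears at 2 weeks. The lowest wild type mouse was above the highest cKO mouse by more than the range within either group. The log2(FC) was -2.18 (SE 0.28, adjusted p = 0.000968 with limma), and it passed under all 19 alternative settings. A near-identical copy, *Gpx2-ps1*, was the gene whose pattern was most like that of *Gpx2* over the 15 libraries, and how shared reads were divided between them is not given in the sources used here.

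*Txnrd1*, the cytosolic thioredoxin reductase (chromosome 10, 82296696 to 82360469), had an FPKM of 30.0, 29.2, 28.0 and 34.4 in wild type ears and 7.30, 21.4, 17.4 and 17.3 in cKO ears at 2 weeks. Again the groups did not overlap and cKO replicate 1 was the lowest. The log2(FC) of -1.04 (SE 0.31, adjusted p = 0.0262 with limma) missed the threshold. *Slc7a11*, the cystine transporter subunit (chromosome 3, 50168858 to 50247535), ranged from 3.74 to 4.39 FPKM in wild type ears and from 2.24 to 3.93 in cKO ears. *Srxn1*, which repairs over-oxidized peroxiredoxins (chromosome 2, 151931252 to 151937112), ranged from 8.59 to 9.79 and from 5.10 to 10.0. Both overlapped between genotypes, with a log2(FC) of -0.43 (SE 0.20) and -0.27 (SE 0.21) and an adjusted p of 0.0943 and 0.296 with limma. Their sign turned after quantile normalization, to 0.04 and 0.10, and that of *Srxn1* also after removal of the length and GC trends, to 0.22.

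The 2 members that reduce quinones and degrade heme were higher in cKO ears at 2 weeks, and 1 of them passed. *Nqo1* (chromosome 8, 109912125 to 109927106, 6 exons) had an FPKM of 6.80, 6.25, 7.84 and 7.80 in wild type ears and 33.2, 17.3, 28.4 and 23.4 in cKO ears. No cKO value came near the wild type range. With a log2(FC) of 1.78 (SE 0.21, adjusted p = 0.000629 with limma), a 3.44-fold difference, it passed under all 19 alternative settings. *Hmox1*, inducible heme oxygenase (chromosome 8, 77617490 to 77624495), had an FPKM of 42.3, 36.9, 37.4 and 43.3 in wild type ears and 65.6, 52.4, 61.4 and 47.4 in cKO ears. The groups did not overlap, but the log2(FC) was 0.49 (SE 0.14, adjusted p = 0.0235 with limma) and did not pass in any setting.

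The metallothionein pair lies side by side on chromosome 8 of mm9, *Mt2* from 96696518 to 96697467 and *Mt1* from 96702989 to 96704225. At 2 weeks *Mt1* had an FPKM of 181, 174, 167 and 149.9 in wild type ears and 519, 219, 379 and 301 in cKO ears. *Mt2* had 246, 250.1, 265 and 251 in wild type ears and 472, 277, 408 and 406 in cKO ears. Neither gene overlapped between the genotypes, the cKO values being higher, and cKO replicate 1 was the highest and replicate 2 the lowest. For *Mt1* the log2(FC) was 1.01 (SE 0.25, adjusted p = 0.0137 with limma) and for *Mt2* 0.60 (SE 0.18, adjusted p = 0.0245), and neither passed. *Mt1* passed without cKO replicate 2 and with all 4 groups in 1 fit. Over the alternative settings, those that only leave out 1 mouse aside, the log2(FC) ranged from 0.55 to 1.22 for *Mt1*. For *Mt2* it ranged from 0.075 to 0.81, so its difference at 2 weeks was close to none at the lower end.

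In all, 3 of the 10 genes passed at 2 weeks, beside 14.4% of all genes tested. The groups did not overlap for 8 of the 10, of which 4 were higher (*Nqo1*, *Hmox1*, *Mt1*, *Mt2*) and 4 lower (*Gclc*, *Gclm*, *Gpx2*, *Txnrd1*) in cKO ears, while 56.1% of all genes tested did not overlap. The 10 thus did not move one way at 2 weeks.

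At 10 weeks 2 of the 10 genes, *Gclc* and *Mt2*, were up-regulated in cKO ears and none was down-regulated, beside 12.5% and 2.43% of all genes tested. Neither call held in all settings. The median log2(FC) of the 10 was 0.84, against 0.31 for all genes tested. *Gclc* had an FPKM of 2.56, 7.81 and 1.19 in wild type ears and 13.1, 15.1, 12.4 and 10.6 in cKO ears. The lowest cKO mouse was above the highest wild type mouse, and the wild type mice differed widely among themselves. The log2(FC) was 2.09 (SE 0.49, adjusted p = 0.00984 with limma), just inside the threshold, and the exact permutation test gave p = 0.0571, the smallest that 3 mice against 4 allow. The log2(FC) ranged from 1.48 to 2.79 over 17 alternative settings, both ends being those without 1 wild type mouse (replicate 3 and replicate 2). It passed in 5 of the 17, and it was lost without each of wild type replicates 1 and 3 and each of the 4 cKO mice. The call was also lost without an expression filter, after median-of-ratios scaling, with a pseudocount of 0.01 and with a constant prior variance. It was lost as well in the 2 settings in which *Mt1* passed.

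*Gclm* had an FPKM of 9.20, 9.33 and 3.49 in wild type ears and 13.1, 13.9, 19.0 and 10.8 in cKO ears at 10 weeks, with no overlap. Its log2(FC) of 1.04 (SE 0.34, adjusted p = 0.0385 with limma) did not pass. *Txnrd1* had 15.9, 16.8 and 9.39 in wild type ears and 23.0, 25.8, 28.2 and 13.3 in cKO ears, where 1 cKO mouse lay within the wild type range. *Srxn1* had 9.59, 8.57 and 6.20 in wild type ears and 13.6, 14.7, 17.2 and 12.2 in cKO ears. For *Srxn1* the groups were apart, and the log2(FC) was 0.83 (SE 0.21, adjusted p = 0.0124 with limma). *Slc7a11* ranged from 1.86 to 2.68 FPKM in wild type ears and from 2.70 to 3.61 in cKO ears, which did not overlap by a narrow margin, and its log2(FC) turned to -0.52 after removal of the length and GC trends. *Gpx2* was the only one of the 10 with a negative log2(FC) at 10 weeks, -0.54 (SE 0.42, adjusted p = 0.327 with limma), and its groups overlapped.

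*Nqo1* had an FPKM of 7.92, 9.50 and 9.25 in wild type ears and 10.9, 11.2, 12.6 and 17.6 in cKO ears at 10 weeks. The cKO values lay above the wild type range, with a log2(FC) of 0.53 (SE 0.21, adjusted p = 0.0681 with limma) that did not pass. *Hmox1* had 46.7, 29.0 and 23.9 in wild type ears and 49.1, 44.9, 63.4 and 79.6 in cKO ears, and the groups overlapped. Its log2(FC) was 0.86 (SE 0.27, adjusted p = 0.0326 with limma).

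*Mt2* had an FPKM of 744, 378 and 594 in wild type ears and 1544, 1241, 1450.2 and 1638 in cKO ears at 10 weeks. The highest wild type mouse was far below the lowest cKO mouse. The log2(FC) was 1.41 (SE 0.27, adjusted p = 0.00447 with limma), a 2.65-fold difference, and it passed in 11 of 17 alternative settings. It was lost without an expression filter, after median-of-ratios scaling, and without each of wild type replicate 3 and cKO replicates 1, 2 and 3. *Mt1* had 759, 328 and 665 in wild type ears and 1139, 864, 976 and 1237 in cKO ears. Its groups did not overlap either, and its log2(FC) of 0.93 (SE 0.31, adjusted p = 0.041 with limma) missed both thresholds. *Mt1* passed in 2 of the 17 alternative settings. By mean FPKM over the 4 cKO mice, *Mt2* ranked 50th and *Mt1* 81st of 21110 genes. The groups did not overlap for 7 of the 10 genes at 10 weeks, all higher in cKO ears, beside 42.3% of all genes tested.

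**Figure D2:**
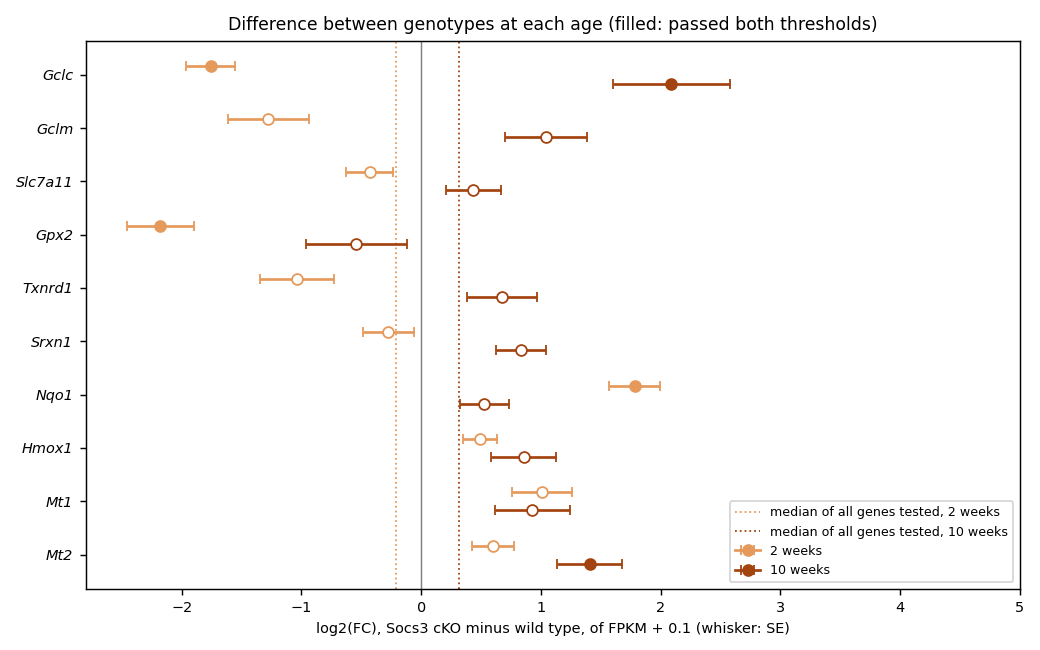
Difference between *Socs3* cKO and wild type at each age as log2(FC) of FPKM + 0.1 (x axis), with the SE as whiskers, for each gene (y axis), and dotted lines at the median of all genes tested. Filled points passed both thresholds: *Gclc*, *Gpx2* and *Nqo1* at 2 weeks, *Gclc* and *Mt2* at 10 weeks.

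Whether the effect of genotype differed between the ages was tested as an interaction in all 15 libraries, where a positive value means a larger log2(FC) at 10 than at 2 weeks. It passed at an adjusted p below 0.01 for 5 of the 10 genes, 4 of them positive, beside 25.6% of all genes tested (18.5% positive, 7.05% negative). Of the genes that passed, 72.4% were positive, against 52.0% after median-of-ratios scaling, 45.4% after quantile normalization and 43.3% after removal of the length and GC trends. The median over all genes tested was itself 0.55. *Gclc* had the largest value of the 10, 3.85 (SE 0.58, adjusted p = 0.000322 with limma), and it passed in all 25 alternative settings. Its log2(FC) turned sign between the ages, as did those of *Gclm*, *Txnrd1*, *Srxn1* and *Slc7a11*. Of these genes only *Gclc* passed within an age. The values of *Srxn1* and *Slc7a11* at 2 weeks were positive after quantile normalization (0.10 and 0.04), so their turn did not hold there. From 2 to 10 weeks *Gclc* changed by -3.56 in wild type ears and by 0.29 in cKO ears. *Gclm* (2.32, SE 0.53, adjusted p = 0.00367 with limma) passed in 24 of 25, and without wild type replicate 3 at 10 weeks it was 1.86. *Txnrd1* (1.71) and *Srxn1* (1.11) were just inside the threshold and passed in 8 and 6 of 25 settings. *Nqo1* was the 1 gene with a negative interaction that passed, -1.26 (SE 0.30, adjusted p = 0.00507 with limma), and it passed in 17 of 25, being lost in 8 of the 15 settings that leave out 1 mouse. For *Mt1* (-0.08, SE 0.41) and *Mt2* (0.81, SE 0.31) it did not pass, with an adjusted p of 0.88 and 0.0434 with limma. For *Mt2* it passed after quantile normalization and after removal of the length and GC trends, and for *Mt1* the sign turned in both, to 0.41 and 0.29.

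The change with age was taken within each genotype from the same fit. These comparisons use the same libraries as those above, so they are given as values and not as separate evidence. In wild type ears 4 of the 10 genes passed from 2 to 10 weeks, beside 25.5% of all genes tested (6.18% higher, 19.4% lower). Of those that passed 24.2% were higher, against 47.1% after median-of-ratios scaling, 48.8% after quantile normalization and 52.4% after removal of the length and GC trends. *Gclc* fell by 3.56 on the log2 scale (SE 0.42, adjusted p = 2.19e-05 with limma), to a mean of 3.86 ± 3.50 FPKM (SD, n = 3) from 35.5 ± 2.64 (SD, n = 4). *Gclm* fell by 1.80 (SE 0.39, adjusted p = 0.00187 with limma), and by 1.34 without wild type replicate 3 at 10 weeks, which no longer passed. *Gpx2*, *Txnrd1* and *Slc7a11* had negative values that did not pass, -1.10, -1.15 and -0.87, although none overlapped between the ages. In wild type ears the ages were apart for 8 of the 10 genes, 3 higher and 5 lower at 10 weeks, beside 66.8% of all genes tested. *Mt1* rose by 1.71 (SE 0.30, adjusted p = 0.000455 with limma) and *Mt2* by 1.12 (SE 0.23, adjusted p = 0.00123 with limma). The rise of *Mt2* missed the threshold without wild type replicate 1 at 10 weeks (0.90), after quantile normalization (0.76) and after removal of the length and GC trends (0.94).

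In cKO ears 2 of the 10 genes, *Mt1* and *Mt2*, rose from 2 to 10 weeks and none fell, beside 2.01% and 1.53% of all genes tested (3.54% in either direction). *Mt2* rose by 1.93 (SE 0.21, adjusted p = 4.73e-05 with limma), to a mean of 1468 ± 170 FPKM (SD, n = 4) from 391 ± 82.1 (SD, n = 4), and passed in all 19 alternative settings. *Mt1* rose by 1.63 (SE 0.28, adjusted p = 0.00191 with limma), to 1054 ± 166 from 354 ± 128, and missed the threshold after median-of-ratios scaling (1.55) and in a fit on the cKO mice alone. For 3 of the 10 the ages did not overlap, all higher at 10 weeks, beside 14.5% of all genes tested. *Gclc* and *Gclm* overlapped between the ages, with a log2(FC) of 0.29 and 0.52. *Nqo1* had a log2(FC) of -0.95 (adjusted p = 0.00945 with limma), past the p but not the fold threshold. *Srxn1* was higher in all 4 mice at 10 weeks than in all 4 at 2 weeks, with a log2(FC) of 0.90 (adjusted p = 0.0125 with limma).

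**Figure D3:**
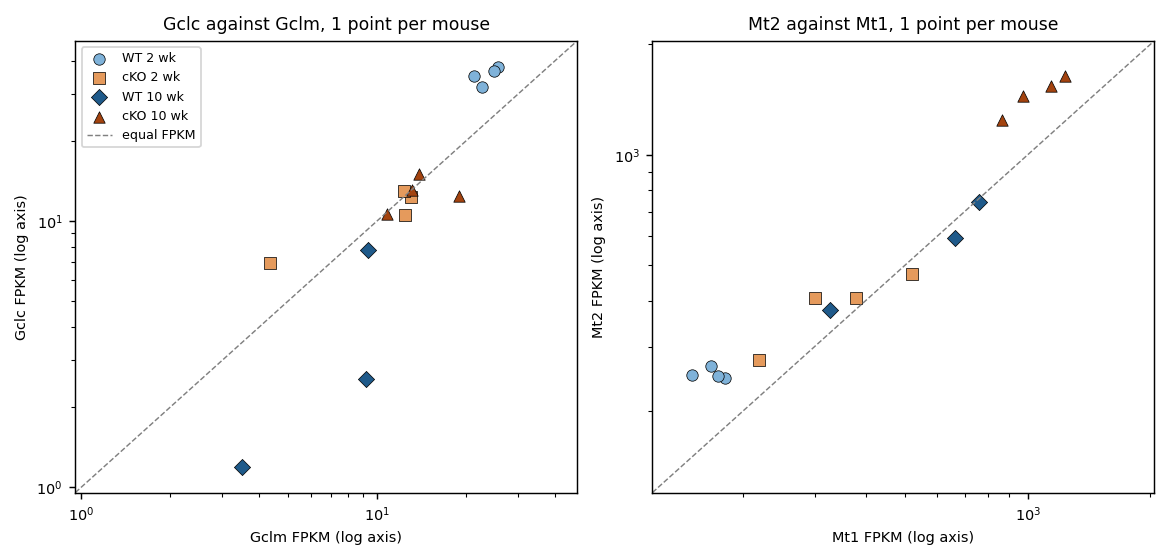
FPKM of *Gclc* against *Gclm* (left) and of *Mt2* against *Mt1* (right), both on log axes, with 1 point per mouse, a colour and shape per group, and a dashed line at equal FPKM. *Gclc* lay above *Gclm* in the 4 wild type mice at 2 weeks and below it in the 3 at 10 weeks, and *Mt2* lay above *Mt1* in every mouse of the wild type at 2 weeks and of cKO at 10 weeks.

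The 2 subunits of glutamate-cysteine ligase did not keep a fixed ratio. *Gclc* to *Gclm* was 1.50 ± 0.105 (SD, n = 4) in wild type ears at 2 weeks and 0.486 ± 0.306 (SD, n = 3) at 10 weeks, and 1.11 ± 0.335 and 0.929 ± 0.191 (SD, n = 4 each) in cKO ears. *Mt2* to *Mt1* was 1.51 ± 0.140 and 1.01 ± 0.133 in wild type ears at 2 and 10 weeks, and 1.15 ± 0.196 and 1.40 ± 0.0743 in cKO ears. *Mt1* and *Mt2* are related copies, and how reads that match both were assigned is not given in the sources used here.

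By level, *Mt2* and *Mt1* were the highest of the 10 in every library, and *Hmox1* came next in each group by mean FPKM. *Slc7a11* was the lowest by mean in wild type ears at both ages and in cKO ears at 10 weeks, where it stood at 3.02 ± 0.411 FPKM beside 3.17 ± 1.41 for *Gpx2* (SD, n = 4), closer than the spread of either. In cKO ears at 2 weeks *Gclc* (10.7 ± 2.71) and *Gclm* (10.6 ± 4.15) did not differ beyond their spread. Likeness of pattern was measured as the root mean square difference of log2(FPKM + 0.1) over the 15 libraries after centring each gene. *Mt1* was the second closest gene to *Mt2*, and *Mt2* the closest to *Mt1*, at 0.27 log2 units among 8552 genes. *Txnrd1* was closest to *Prkcd* (0.16) and *Yap1* (0.17), *Gclm* to *Rnf39* (0.23) and *Dok4* (0.24), and *Gclc* to *Spats2* (0.29) and *Erg* (0.37). *Nqo1* was closest to *BC064078* (0.24) and *Dapl1* (0.25), *Hmox1* to *Pla2g7* (0.21) and *A430084P05Rik* (0.22), and *Srxn1* to *Rell1* (0.19) and *H2-Q2* (0.19). Within the 10, the closest pairs were *Mt1* with *Mt2* (0.27) and *Gclm* with *Txnrd1* (0.29), while *Gclc* differed from *Mt1* by 2.11.

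Markers of other cell types moved with these groups. The summed FPKM of the 6 hair follicle markers present in the files was 948 to 1374 in wild type ears at 2 weeks, the group with the highest *Gclc*, *Gclm*, *Gpx2* and *Txnrd1*. It was 5.07 to 23.5 in cKO ears at 2 weeks, 6.99 to 8.07 in wild type ears and 3.67 to 33.7 in cKO ears at 10 weeks, and no marker was at 0 in all mice of a group. Its part in the lower *Gclc*, *Gclm*, *Gpx2* and *Txnrd1* was not tested. The 6 macrophage markers summed to 218 to 249 in wild type ears and 332 to 687 in cKO ears at 2 weeks, and to 264 to 437 and 622 to 1050 at 10 weeks, and macrophages are a known source of *Hmox1*. The 6 neutrophil markers, which include *S100a8* and *S100a9*, summed to 10.6 to 19.4 and 207 to 430 at 2 weeks. The paper lists both of these genes among the most up-regulated at 2 weeks. Only 3 of the 6 reached the filter at that age, 2 of them up-regulated, and *Mpo* was at 0 in all wild type mice. The sums at 10 weeks were 21.8 to 72.0 and 18.5 to 1271, with a median of 34.4 in cKO ears. Of the 4 markers tested at 10 weeks none passed, and *Elane* was at 0 in all cKO mice. The 4 sebaceous gland markers summed to 400.2 to 428 in wild type ears and 1400 to 2093 in cKO ears at 2 weeks, and to 1171 to 1422 and 1233 to 1619 at 10 weeks. The 4 erythroid markers present, which bear on heme, summed to 299.7 to 348 in wild type ears and 1734 to 4807 in cKO ears at 2 weeks, and to 2812 to 4301 and 430 to 1344 at 10 weeks. The part of these cells in the values of *Nqo1*, *Hmox1*, *Mt1* and *Mt2* was not tested.

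The 4 endothelial markers were highest in wild type ears at 2 weeks and lowest there at 10 weeks, as *Gclc* was, at 51.9 to 59.2 in wild type and 39.2 to 48.1 in cKO ears at 2 weeks, and at 10.4 to 14.5 in wild type and 27.9 to 38.8 in cKO ears at 10 weeks. The 5 fibroblast markers summed to between 8228 and 9862 in wild type and between 3549 and 5171 in cKO ears at 2 weeks. The sums at 10 weeks lay between 3166 and 5258 and between 4835 and 8844. A sum follows its most abundant markers, and at 2 weeks 3 of these 5 had a positive log2(FC) and 2 a negative one. Among them 1 was up-regulated and 2 were down-regulated. The 5 skeletal muscle markers lay between 602 and 916 in wild type and between 1418 and 2802 in cKO ears at 2 weeks, and between 669 and 1143 and between 333 and 612 at 10 weeks. The 4 cartilage markers present lay between 203 and 330 in wild type and between 72.9 and 138 in cKO ears at 2 weeks, and between 79.7 and 101 and between 82.3 and 187 at 10 weeks, with *Matn1* at 0 in every mouse at 2 weeks. The 4 melanocyte markers present lay between 149.6 and 206 in wild type and between 127 and 328 in cKO ears at 2 weeks, and between 53.0 and 80.4 and between 46.8 and 112 at 10 weeks. The 4 adipocyte markers summed to at most 96.8 in every group. Their sums overlapped between genotypes at 2 weeks. At 10 weeks they were 23.1 to 43.2 in wild type and 43.6 to 96.8 in cKO ears, apart by a narrow margin. Sums of T cell markers overlapped between genotypes at both ages and those of mast cell markers at 10 weeks. Even so, 2 of the 4 T cell markers were up-regulated in cKO ears at 2 weeks and none was down-regulated. The mast cell sums were apart at 2 weeks, at 460 to 491 in wild type and 551 to 1101 in cKO ears, though no mast cell marker passed. The part of any of these cells in the values of the 10 genes was not tested.

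The other genes of the pathway were read from lists, chosen with earlier results of these data known. Among 11 regulators of NRF2, 1 was down-regulated at 2 weeks and none up-regulated, beside 7.19% and 7.24% of all genes tested. It was *Bach2*, a repressor that competes for the same sites (-1.64, SE 0.33, adjusted p = 0.00642 with limma). Its FPKM was low, 1.57 to 1.89 in wild type and 0.344 to 1.10 in cKO ears (median 0.387). It thus passed the filter through the wild type mice. That call was lost without any 1 of 6 of the 8 mice, the exceptions being cKO replicates 1 and 2. It was also lost with a pseudocount of 1, without an expression filter and with the replicate number as a block. *Bach2* did not pass the filter at 10 weeks. *Nfe2l2* itself had a mean FPKM of 31.1 ± 0.966 in wild type ears and 45.6 ± 19.5 in cKO ears at 2 weeks (SD, n = 4 each), and its log2(FC) of 0.47 (SE 0.25, adjusted p = 0.14 with limma) did not pass. At 10 weeks 4 of the 10 regulators tested were up-regulated and none down-regulated, beside 12.5% and 2.43% of all genes tested, namely the small MAF genes *Maff* (2.92), *Mafk* (2.03) and *Mafg* (1.09) and the repressor *Bach1* (1.79). *Maff* rose to 25.5 ± 2.12 FPKM (SD, n = 4) from 3.46 ± 1.36 (SD, n = 3) and passed, like *Mafk*, in all 17 alternative settings, *Bach1* in 16 and *Mafg* in 5. *Nfe2l2* (0.75, adjusted p = 0.00824 with limma) and *Sqstm1* (0.81, adjusted p = 0.00841), a KEAP1-binding autophagy receptor, passed the p but not the fold threshold at 10 weeks. *Keap1* had a log2(FC) of -1.10 at 2 weeks and -0.19 at 10 weeks, and its ligase partners *Cul3* (0.01 and 0.75) and *Rbx1* (0.37 and -0.24), like the related factor *Nfe2l1* (-0.64 and 0.32), did not pass at either age. At 2 weeks *Bach1* (-0.02), *Maff* (-0.40), *Mafk* (-0.96), *Mafg* (-1.69) and *Sqstm1* (0.08) did not pass.

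Among 29 other NRF2 targets tested, 8 were up-regulated at 2 weeks and none down-regulated, with a median log2(FC) of 0.61, beside 7.24% up- and 7.19% down-regulated and a median of -0.21 over all genes tested. With 1 mouse left out the count ranged from 2 to 10, and it was 2 without wild type replicate 4, 3 without wild type replicate 1, 2 or 3 or cKO replicate 3, and 4 without cKO replicate 4. The 8 included glutathione S-transferases of the alpha class, which are related copies whose reads may be shared: *Gsta3* (2.50), *Gsta4* (2.07), *Gsta2* (1.61) and *Gsta1* (1.60). *Gsta3* ranged from 0.887 to 1.08 FPKM in wild type ears (median 0.973) and from 3.84 to 9.96 in cKO ears at 2 weeks. It met the filter only through the cKO mice, where it was high. At 10 weeks 4 of the 29 were up-regulated and none down-regulated, near the 12.5% and 2.43% of all genes tested. None of the 4 was from that class: the glucuronosyltransferase *Ugt1a6a* (2.44), the glutathione conjugate exporter *Abcc1* (1.52), *Osgin1* (1.28) and *G6pdx* (1.16), which supplies NADPH. *Ugt1a6a* ranged from 0.674 to 2.58 FPKM in wild type and from 6.30 to 8.63 in cKO ears, so it met the filter only with the cKO mice. The count at 10 weeks was 1 without an expression filter or without wild type replicate 3, and 2 without cKO replicate 2. Among 26 other antioxidant enzymes tested, 5 were up-regulated at 2 weeks and none down-regulated, beside 7.24% and 7.19% of all genes tested. The 5 included glutaredoxin *Glrx* (1.51), the lipid peroxide reductase *Gpx4* (1.30) and the peroxiredoxins *Prdx6* (1.27) and *Prdx5* (1.21). At 10 weeks only *Sesn2* was up-regulated (2.58) and only the mitochondrial *Glrx5* down-regulated (-1.37), beside 12.5% and 2.43% of all genes tested. *Sesn2* was low in wild type ears, at 0.396 to 1.85 FPKM (median 0.551), against 2.94 to 7.40 in cKO ears. It too met the filter only through the cKO mice. With 1 mouse left out the count at 2 weeks ranged from 3 (without wild type replicate 1, 2 or 4 or cKO replicate 3 or 4) to 8 (without cKO replicate 2), and that at 10 weeks from 1 (without wild type replicate 1 or 3) to 4 (without wild type replicate 2).

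For heme and iron, 1 of 12 genes tested was up-regulated at 2 weeks and 2 of 13 at 10 weeks, none being down-regulated. Of all genes tested, 7.24% were up-regulated at 2 weeks and 12.5% at 10 weeks, so these counts are near the general share. The count at 2 weeks was 3 without cKO replicate 1 or 2, and that at 10 weeks 1 without wild type replicate 1 or 3. The ferroxidase *Cp* was up-regulated at both ages (2.24 and 1.92) and the hemoglobin-binding *Hp* at 10 weeks (1.87), beside *Hmox1*, which passed at neither. At 2 weeks *Hp* did not pass, although it ranged from 10.9 to 12.8 FPKM in wild type and from 15.9 to 90.5 in cKO ears. For zinc and other metals, 16 genes were tested at each age, and 4 passed at each, beside 14.4% of all genes at 2 weeks and 14.9% at 10 weeks. With 1 mouse left out the count ranged from 1 to 4 at 2 weeks, being 1 or 2 without any mouse but cKO replicate 2. At 10 weeks it ranged from 1 to 5, being 1 without wild type replicate 1 or 3 or cKO replicate 2 or 3, and 2 without cKO replicate 1. At 2 weeks the zinc importers *Slc39a8* (-2.35), *Slc39a14* (-1.43) and *Slc39a6* (-1.04) were down-regulated and *Mt4*, the metallothionein of stratified epithelium, up-regulated (1.06). At 10 weeks 4 were up-regulated: *Slc39a10* (1.41), the copper pump *Atp7a* (1.35), *Slc39a8* (1.26) and the zinc transporter *Slc30a7* (1.03). There *Slc39a8* ranged from 0.818 to 1.49 FPKM in wild type and from 2.02 to 3.55 in cKO ears, so it met the filter only with the cKO mice. After removal of the length and GC trends 2 genes of this list passed at 2 weeks and none at 10 weeks. Of the other metallothioneins, *Mt4* had a mean FPKM of 326 ± 26.0 in wild type ears at 2 weeks (SD, n = 4), where the cKO ears ranged from 508 to 1073, and of 778 ± 404 (SD, n = 3) and 554 ± 158 (SD, n = 4) at 10 weeks. *Mt3* ranged from 0.643 to 4.24 FPKM in all 15 libraries, with a log2(FC) of 1.04 at 2 weeks and -1.31 at 10 weeks that did not pass. The metal sensor *Mtf1* (-0.71 and 0.54) and the zinc exporter *Slc30a1* (-0.84 and 0.02) did not pass at either age.

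**Figure D4:**
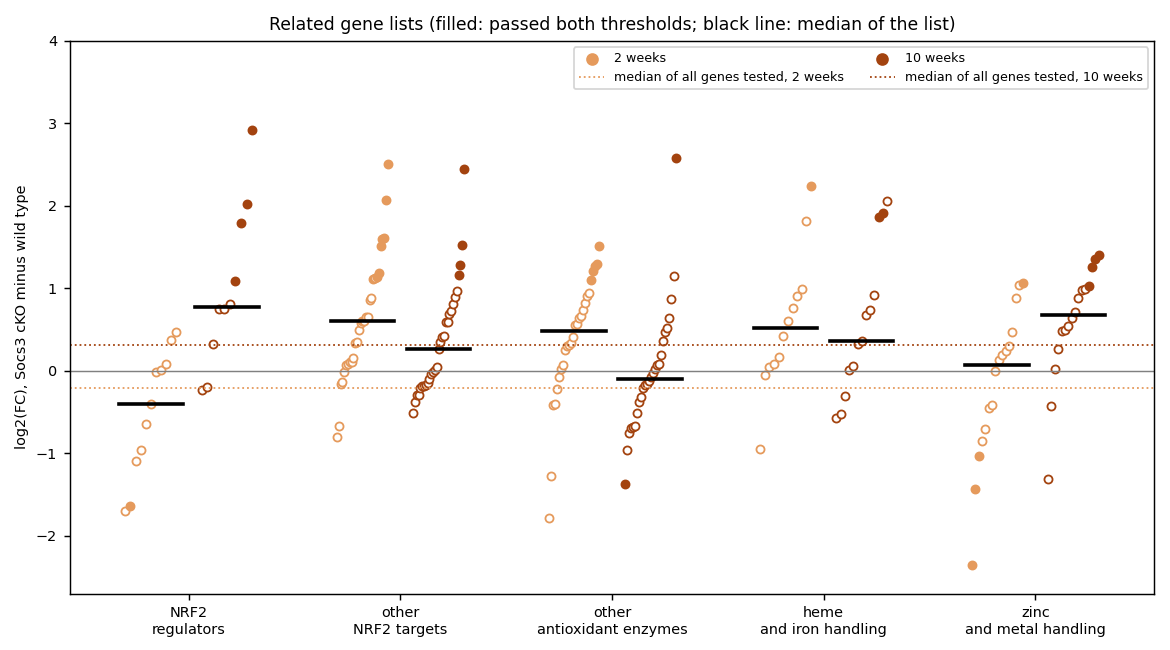
log2(FC) of *Socs3* cKO against wild type (y axis) for each tested gene of 5 related lists (x axis) at 2 and 10 weeks, with filled points for genes that passed both thresholds, a black line at the median of the list and dotted lines at the median of all genes tested. The median of the NRF2 regulators was -0.40 at 2 weeks and 0.78 at 10 weeks, and that of the other NRF2 targets 0.61 and 0.27.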

How the data were processed

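RNA from ear specimens of 15 mice was sequenced as single reads, 1 library a mouse. TopHat2 (version 2.1.0) was used by the authors to align them to mm9, and the deposited values are FPKM per gene. Cufflinks is named in the submitters' processing notes without a version or role. The authors tested the genes with edgeR, which needs counts and was not repeated here. The depth of each library is unknown, so no counting error could be given. The library kit does not mark strand, so reads of overlapping genes cannot be told apart. Wild type mice beyond these, named in the study's methods, were not analysed here. Groups came from the labels.

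log2(FPKM + 0.1) was fitted by limma 3.58.1 (R 4.3.3), its prior variance following the mean, for genes that reached 1 FPKM in 3 or more samples of the fit. Tests were 2-sided and Benjamini-Hochberg adjusted across those genes. Genotypes were compared within an age on the 2 groups concerned. The interaction and age changes used all 15 libraries. Exact permutation tests were 2-sided. Fold changes on this scale understate those of low genes. The limma step was tested on simulated data. For positions, 97.3% of symbols were matched to GENCODE genes on mm9. The members and lists were chosen with earlier results of these data known. Named genes were the 10 members, *Socs3*, all NRF2 regulators, *Mt3*, *Mt4*, *Mtf1*, *Slc30a1*, and for each other list at most 4 genes per age that passed, largest change first. Alternatives were other pseudocounts (1 and 0.01), filters (none, or 1 FPKM in each sample of a group) and scalings (median-of-ratios, quantile), a block for the replicate number, fits on other samples, a prior variance without trend, removal of length and GC trends, and each mouse left out. That removal without *Socs3* cKO replicate 1 at 2 weeks was added after seeing the data. Python 3.11.15, numpy 2.4.6, pandas 2.3.3, scipy 1.17.1 and matplotlib 3.10.9 were used for the rest.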

Additional observations from a re-analysis of the deposited data

Results flagged for a closer look

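For 48 genes (the 10 members, *Socs3* and the named genes of the lists) the 3 groups of 4 mice were examined for 1 mouse far from the other 3, with a gap to the nearest, as a share of the group's range, past Dixon's 95% critical value. This held for 14 of 144 groups. Chance gives about 1 in 20 for independent groups, but these share the same libraries, so the count cannot be set against that rate. Among the members it held for *Gclm* in *Socs3* cKO replicate 1 at 2 weeks, at 4.35 FPKM, the library that also stood apart by GC content. In the same library *Keap1* (2.91 FPKM), *Osgin1* (1.22 FPKM), *Sesn2* (0.191 FPKM) and *Slc30a1* (4.56 FPKM) were far below the other 3. *Bach2* was far above them in *Socs3* cKO replicate 2 at 2 weeks (1.10 FPKM), and *Socs3* far below in wild type replicate 1 at 2 weeks (9.71 FPKM). At 10 weeks *Socs3* cKO replicate 4 was the lowest for *Bach2* (0.384 FPKM), *Mafk* (19.1 FPKM), *Mafg* (6.41 FPKM) and *Abcc1* (19.9 FPKM), replicate 3 for *Gsta3* (3.22 FPKM) and replicate 1 for *G6pdx* (35.5 FPKM), while replicate 2 was the highest for *Glrx5* (48.3 FPKM).

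The difference in log2(FC) between the ages passed the interaction test (limma, adjusted p below 0.01) for 24 of the 48 genes, beside 25.6% of all genes tested. Many of the 48 were named because they passed at an age in these same libraries, so this share is not a result about the lists. Among the members these were *Gclc* (3.85), *Gclm* (2.32), *Txnrd1* (1.71), *Srxn1* (1.11) and *Nqo1* (-1.26). *Socs3* had a value of 4.60. The NRF2 regulators *Maff* (3.32), *Mafk* (2.98), *Mafg* (2.79) and *Bach1* (1.80) were positive. Among the other targets and enzymes *Ugt1a6a* (2.34), *Abcc1* (1.45), *Osgin1* (1.95) and *Sesn2* (4.36) were positive, and *Gsta3* (-2.68), *Gsta2* (-1.63), *Gpx4* (-1.81), *Prdx6* (-1.25) and *Prdx5* (-1.53) were negative. Among the metal genes *Slc39a8* (3.61), *Slc39a14* (2.42), *Slc39a6* (1.53) and *Slc39a10* (1.82) were positive and *Mt3* (-2.35) was negative.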

How the results depend on the processing

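The calls of *Gclc*, *Gpx2* and *Nqo1* at 2 weeks, of *Gclc* in the interaction and of *Mt2* with age in *Socs3* cKO ears held in every alternative run. The number of the 10 genes that passed changed as follows. At 2 weeks it was 3, and 4 after quantile normalization, 4 after removal of the length and GC trends with or without cKO replicate 1, and 5 with all 15 libraries in the fit. At 10 weeks it was 2, and 1 with a pseudocount of 0.01, 0 without an expression filter, 0 after median-of-ratios scaling and 1 with a constant prior variance. In 2 other settings it stayed at 2 although *Gclc* was lost, since *Mt1* passed in its place. In the interaction it was 5, and 3 without a filter, 3 after median-of-ratios scaling and 3 with a constant prior variance. With age in wild type ears it was 4, and 5 with a pseudocount of 1, 3 after quantile normalization and 6 on the wild type mice alone. With age in cKO ears it was 2, and 1 after median-of-ratios scaling and 1 on the cKO mice alone. With 1 mouse left out it ranged from 3 to 4 at 2 weeks, 0 to 2 at 10 weeks, 1 to 5 in the interaction, 3 to 4 with age in wild type and 2 to 4 in cKO ears. The lowest values were 0 without wild type replicate 3 or cKO replicate 1, 2 or 3 at 10 weeks, and 1 in the interaction without wild type replicate 3 at 10 weeks. The highest in cKO ears, 4, came without cKO replicate 2 at 2 weeks. The cause of these changes was not tested.

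Replicate numbers did not pair the mice: the mean correlation of same-numbered mice was 0.02 at 2 weeks, -0.11 at 10 weeks, and 0.03 and 0.02 between ages in wild type and cKO. With the replicate number as a block, 751 genes passed at 2 weeks in place of 1951, among them 2 in place of 8 other NRF2 targets 0 in place of 1 NRF2 regulator, 3 in place of 5 antioxidant enzymes and 1 in place of 4 metal genes (2 in place of 4 at 10 weeks). In the interaction 3 of the 10 genes passed under the block in place of 5, *Txnrd1* (1.74) and *Srxn1* (1.11) being lost.

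Over all genes, 3300 passed at 2 weeks with all libraries in the fit and 859 to 3348 with 1 mouse left out. At 10 weeks, where 1957 passed, it was 1131 without a filter and 745 to 2665 with 1 mouse left out. In the interaction (3566), wild type (3559) and cKO (493) ages, leaving out 1 mouse gave 1994 to 5117, 2205 to 3826 and 300 to 700, and the cKO mice alone gave 146. Median-of-ratios scaling, quantile normalization and removal of the length and GC trends moved the median log2(FC) of all genes by 0.20, 0.26 and 0.24 at 2 weeks and by -0.25, -0.34 and -0.40 at 10 weeks.

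These values of log2(FC) turned sign, none having passed both thresholds. At 2 weeks, median-of-ratios scaling gave 0.19 for *Bach1*. Quantile normalization gave -0.082 for *Cul3*, 0.35 for *Bach1*, 0.055 for *Maff*, -0.17 for *Sqstm1*, 0.041 for *Slc7a11* and 0.10 for *Srxn1*. Removal of the length and GC trends gave 0.32 for *Nfe2l1*, 0.33 for *Keap1*, -0.57 for *Cul3*, -0.21 for *Rbx1*, 0.20 for *Bach1*, 0.36 for *Maff*, 0.073 for *Mafk*, 0.040 for *Socs3* and 0.22 for *Srxn1*. The same removal without cKO replicate 1, chosen after seeing the data, gave 0.52 for *Nfe2l1*, 0.37 for *Keap1*, -0.50 for *Cul3*, -0.22 for *Rbx1*, 0.30 for *Bach1*, 0.54 for *Maff*, 0.27 for *Mafk*, 0.24 for *Socs3* and 0.22 for *Srxn1*. At 10 weeks *Slc30a1* was -0.24, -0.36 and -0.62 after the 3 corrections, and the trend removal gave -0.15 for *Nfe2l1*, -0.00077 for *Cul3*, -0.22 for *Mtf1* and -0.52 for *Slc7a11*. In the interaction *Hmox1* was -0.11 after median-of-ratios scaling and -0.078 after the trend removal, *Slc7a11* -0.015 after quantile normalization, and *Mt1* 0.41 after quantile normalization, 0.29 after the trend removal and 0.46 also without cKO replicate 1. With age in wild type ears *Srxn1* was 0.18, 0.37 and 0.40 after the 3 corrections and *Hmox1* 0.068 and 0.035 after the first and the last, and in cKO ears *Hmox1* was -0.040 and -0.043 after those 2. With 1 mouse left out, values at 2 weeks ran from -0.051 to 0.074 for *Cul3*, -0.25 to 0.19 for *Bach1*, -0.65 to 0.085 for *Maff* and -0.058 to 0.36 for *Sqstm1*, and from -0.16 to 0.16 for *Slc30a1* at 10 weeks. In the interaction *Mt1* ran from -0.45 to 0.15, and with age in cKO ears *Slc7a11* ran from -0.14 to 0.12 and *Hmox1* from -0.12 to 0.16.

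Of 450 values of the members with 1 mouse left out, 388 kept direction and call, 44 lost a call, 6 gained one and 12 turned sign, and of 490 under the other planned settings these were 438, 23, 13 and 16. Depth is unknown, so the counting error of low genes such as *Slc7a11*, *Gpx2* and *Mt3* could not be given.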
